A study of Mus musculus with 1790 samples.

Results

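Voltage-gated sodium channels, voltage-gated calcium channels and hyperpolarization-activated (HCN) channels set how a neuron fires, and their genes were followed in cortical neurogliaform cells (NGCs), in other interneurons (INs) and in embryonic cells of the NGC lineage. The set held every gene whose symbol begins with Scn and a digit, or with Cacna, Cacnb or Cacng, together with the HCN channel genes. This gave 44 genes of 49586 gene rows over the tables used. Of these, 37 had a row in the P15 table and 37 in the P30 table, out of 17465 gene rows each. The E14.5 table held 38 of them among 22351 rows, the one of FlashTag+ cells held 34 among 21637 and the patch-seq table all 44 among 49585. They comprised 10 sodium channel alpha and 4 sodium channel beta subunits, 7 high-voltage and 3 low-voltage calcium channel alpha1 subunits, 4 alpha2delta and 4 beta subunits of calcium channels, 8 gamma subunits and 4 HCN channels.

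Sodium channel alpha subunits form the pore that carries the rising phase of the action potential, and beta subunits, which are also adhesion molecules, tune its gating and placement. High-voltage calcium channels admit calcium at strong depolarization and drive transmitter release, low-voltage (T-type) channels open near rest, and alpha2delta and beta subunits bring the high-voltage channels to the membrane. Several gamma subunits, the TARPs, instead escort AMPA receptors to synapses, and HCN channels pass a depolarizing current that opens when the membrane hyperpolarizes.

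INs were sorted from the upper layers of the somatosensory cortex of Hmx3-Cre::Htr3a-GFP;Ai14 mice at postnatal day (P) 15 and P30. In these mice Cre, driven by the Hmx3 locus on a bacterial artificial chromosome, switches on tdTOM from Rosa26 in cells with a history of Hmx3, and a second such transgene marks Htr3a-expressing INs with GFP; every postnatal cell here was GFP+. NGCs were the tdTOM+ cells that the authors had labelled Lamp5 Plch2 Dock5 (Dock5+NGCs, 36 at P15 and 76 at P30) or Lamp5 Lsp1 (Lsp1+NGCs, 33 and 35), and non-NGCs were the tdTOM- cells with any other subtype label (89 and 96). Lineage cells of the embryo (E14.5) were 418 tdTOM+/GFP+ cells of the preoptic area (POA) of the same line. They were set against 352 FlashTag+ cells of the wild-type POA, whose dye marks cells dividing at the ventricle. The methods name CD1 mice for the FlashTag injections and a C57BL/6 background for the transgenic line, so strain and collection cannot be told apart. Patch-seq gave 20 Dock5+NGCs and 27 Lsp1+NGCs, tdTOM+/GFP+ cells of the same line recorded in slices at P14 to P25.

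Each sample used here was 1 cell, no label named its animal, and the brains of each postnatal age had been pooled. Every group was therefore 1 sample without replicates, no test was run, and no difference below has a replicate check. The counts of all cells in a group were added up and given as counts per 1000000 (CPM). The intervals beside CPM are exact Poisson intervals at 95% and those beside shares of cells are Clopper-Pearson intervals at 95%. Both cover counting error only and are too narrow, since counts cluster in few cells, as the share of a gene's counts held by its top cell shows. Folds are log2 ratios after 10 CPM were added to both groups, which understates the difference of low genes. A member was compared where at least 1 of both groups reached 20 CPM, and is called higher or lower where the groups differed at least 2-fold. Where only 1 group reached 20 CPM, the direction was fixed in advance by this limit. The authors assigned subtype labels from the same expression values, so a difference between labels is not independent of them.

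The groups held 20241510 counts (NGCs) and 26617367 counts (non-NGCs) at P15, 29002098 and 24741979 at P30, 154371495 in the E14.5 lineage cells, 107308055 in the FlashTag+ cells, and 8166271 (Dock5+NGCs) and 53198151 (Lsp1+NGCs) in patch-seq. No cell repeated the values of another in any table (0 of 390, 581, 418, 352 and 47 cells). The labels matched their markers at both postnatal ages: the NGC markers Lamp5, Ndnf, Reln and Npy summed to 17211 CPM in NGCs and 2573 CPM in non-NGCs at P15, and to 9373 and 3102 CPM at P30. Htr3a was at 344 CPM in NGCs and 2286 CPM in non-NGCs at P15, and at 388 and 2218 CPM at P30. Endothelial and excitatory markers were below 2 CPM in all 4 of these groups, and the oligodendrocyte precursor gene Pdgfra was at 16.8 and 20.9 CPM in non-NGCs against 0 and 0.0345 CPM in NGCs. Astrocyte markers went the other way, at 23.5 CPM in NGCs (0 to 289 CPM per cell) and 0.225 CPM in non-NGCs (0 to 10.7 CPM per cell) at P15, with 2 of 4 at 0 in each, and their part in the results was not tested.

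Of the 44 members, 31 reached 20 CPM in at least 1 group. The 13 others included Scn4a and Scn10a, which had no count in any group of the P15 and patch-seq tables that list them, Scn11a and Scn4b, Cacna1f and Cacna1s, Cacna2d2 and Cacna2d4, Cacng1, Cacng6 and Cacng7, and Hcn2. The highest group levels of these ran from 0 to 12.3 CPM (Scn4b, whose protein shapes resurgent sodium current), except for Cacna2d2, at 19.99 CPM in E14.5 lineage cells just below the limit; over the rows shared with another table it passed 20 CPM and was compared. This list includes the channels best known from muscle, Scn4a, Cacna1s and Cacng1, and from sensory neurons, Scn10a and Scn11a.

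NGCs differed from non-NGCs at both ages in few of these genes, and the calcium channel alpha2delta subunits differed in opposite directions. Of 24 members compared at both ages, 1 was higher in NGCs at P15 and at P30 (Cacna2d1), against 2.08% of all 6973 genes compared in this way. Another 4 were lower in NGCs at both ages (Cacng4, Cacna2d3, Cacna1h and Scn7a), against 2.84% of all genes. Cacna1h and Scn7a passed the 20 CPM limit through non-NGCs alone, so their direction at both ages was fixed by the limit. The sign of the difference was the same at both ages for 23 of the 24 members, against 57.6% of all genes. The exception was the L-type pore gene Cacna1d, at -0.21 and 0.02 on the log2 scale. The median log2 fold of the members was -0.13 at P15 over 26 compared and -0.33 at P30 over 29, beside -0.03 and 0.04 over all genes.

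**Figure D1:**
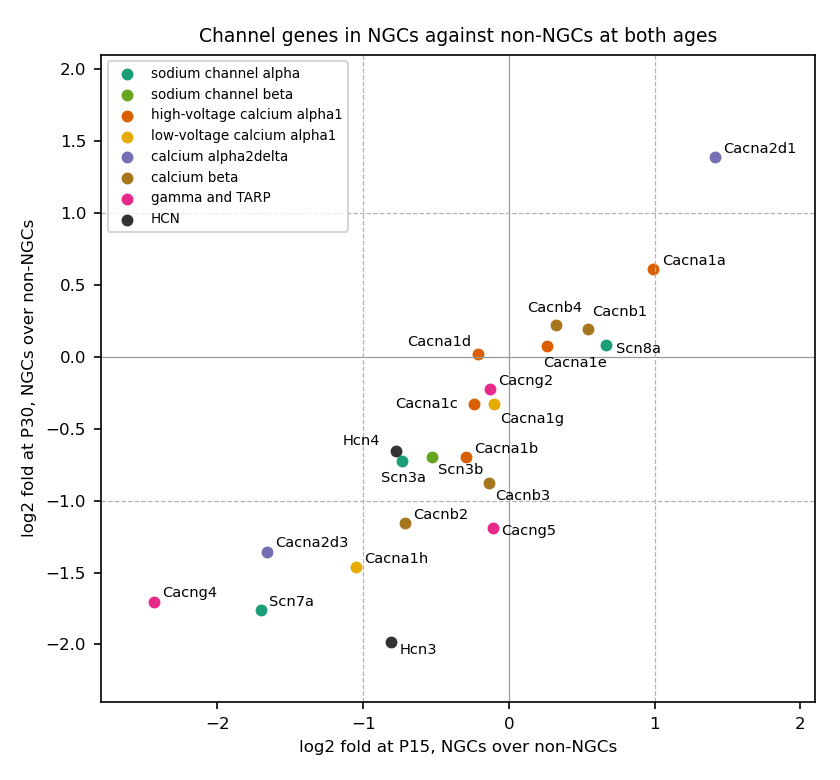
Log2 fold of NGCs over non-NGCs (10 CPM added) at P15 (horizontal axis) and P30 (vertical axis) for 22 of the members compared at both ages, 1 point per gene, coloured by subunit group; dashed lines mark 2-fold. Cacna2d1 lies beyond 2-fold at the upper right, with 1.41 and 1.39, and Cacng4, Cacna2d3, Cacna1h and Scn7a at the lower left.

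Cacna2d1 (chr5:15934691-16374511, plus strand, GRCm38) encodes an alpha2delta subunit that binds gabapentin. In NGCs at P15 its lowest, median and highest cells held 0, 525 and 2729 CPM, and in non-NGCs 0, 156 and 1259 CPM. At P30 the same values were 0, 488 and 2823 CPM in NGCs and 0, 76.8 and 1962 CPM in non-NGCs. Single cells of both groups overlapped over most of this range, and the medians stood apart at both ages. Summed over cells at P15, Cacna2d1 reached 649 CPM in NGCs (638 to 660.2) but 237 CPM in non-NGCs (232 to 243), which is 1.41 on the log2 scale. At P30 the sums of 563 CPM (554 to 571) against 209 CPM (203 to 215) differed by 1.39. No cell held more than 8.39% of its counts in any of these groups. By labelled class, it was at 590 CPM in Dock5+NGCs and 714 CPM in Lsp1+NGCs at P15, at 403 CPM in the other Lamp5 cells of both sorts, and at 215 CPM in Vip and 235 CPM in Sncg cells. Lsp1 cells of the tdTOM- sort, which no comparison of NGCs uses, had 858 CPM at P15 and 759 CPM at P30.

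Cacna2d3, another alpha2delta gene (chr14:28904943-29721864, minus strand), went the other way. Its lowest, median and highest cells held 0, 5.24 and 599 CPM in NGCs and 0, 85.0 and 995 CPM in non-NGCs at P15, and 0, 2.65 and 835 CPM against 0, 21.7 and 1252 CPM at P30. Summed at P15, NGCs had 54.5 CPM (51.4 to 57.9) against 194 CPM (189 to 200), and at P30 they had 53.0 CPM (50.3 to 55.7) against 151 CPM (146 to 156). These differences were -1.66 and -1.35 on the log2 scale. With every cell thinned to 132413 counts at P15, 53.1% (40.2 to 65.7) of NGCs and 82.1% (71.7 to 89.8) of non-NGCs had a count of it; before thinning these shares were 62.3% and 87.6%. Thinning left out 5 NGCs and 11 non-NGCs that were shallower at P15, and 10 and 11 at P30, where each cell was thinned to 136253 counts. Among the classes the Sncg cells were highest, at 312 CPM at P15 and 273 CPM at P30, and Lsp1+NGCs were lowest, at 12.4 and 2.95 CPM.

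The promoters of both genes are shown because the genes, of 1 subunit family, stood on opposite sides of the comparison. They are RefSeq windows of 300 bases on GRCm38.p6, each with 250 bases before and 50 after the start of transcription, written 5′ to 3′ along the gene's own strand. Capitals mark GC boxes, the letters GGGCGG or, on the other strand, CCGCCC, and overlapping matches run together. The window of Cacna2d1 is chr5:15934441-15934740 on the plus strand and that of Cacna2d3 is chr14:29721815-29722114 on the minus strand.
Cacna2d1: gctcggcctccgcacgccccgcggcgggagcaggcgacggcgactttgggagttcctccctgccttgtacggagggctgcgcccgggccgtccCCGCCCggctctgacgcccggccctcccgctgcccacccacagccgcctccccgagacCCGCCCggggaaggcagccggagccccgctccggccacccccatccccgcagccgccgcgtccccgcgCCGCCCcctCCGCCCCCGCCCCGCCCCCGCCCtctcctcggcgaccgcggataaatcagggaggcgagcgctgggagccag
Cacna2d3: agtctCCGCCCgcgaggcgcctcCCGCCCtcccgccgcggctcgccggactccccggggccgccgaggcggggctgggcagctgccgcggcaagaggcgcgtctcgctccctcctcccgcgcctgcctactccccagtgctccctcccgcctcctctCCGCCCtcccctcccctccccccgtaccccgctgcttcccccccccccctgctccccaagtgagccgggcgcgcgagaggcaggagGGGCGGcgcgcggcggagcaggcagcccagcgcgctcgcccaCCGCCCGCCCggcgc
The former holds 7 GC boxes and 42 CpG pairs and the latter 6 and 41. A GC box is present in 35.7% of the 32851 promoter windows of the same length, and the median window holds 7 CpG pairs. Both windows thus carry the same letters at like density, and a match is a description of the sequence and not a site.

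Cacng4 (chr11:107732357-107794557, minus strand) encodes a TARP and had the largest difference of any member at P15. The lowest, median and highest cells were at 0, 8.53 and 796 CPM in NGCs and at 0, 162 and 2096 CPM in non-NGCs at P15, and at 0, 3.52 and 1778 CPM against 0, 133 and 2290 CPM at P30. Summed at P15, NGCs had 43.9 CPM (41.1 to 46.9) against 282 CPM (275 to 288), or -2.44 on the log2 scale. At P30 they had 82.3 CPM (79.1 to 85.7) against 290.4 CPM (284 to 297), or -1.70. After thinning, 59.4% of NGCs and 89.7% of non-NGCs had a count at P15, and 52.5% and 83.5% at P30. The difference was shared by the classes: Cacng4 was at 225 CPM in Vip, 441 CPM in Sncg and 231 CPM in the other Lamp5 cells at P15, against 39.4 CPM in Dock5+NGCs, 48.8 CPM in Lsp1+NGCs and 42.6 CPM in tdTOM- Lsp1 cells.

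**Figure D2:**
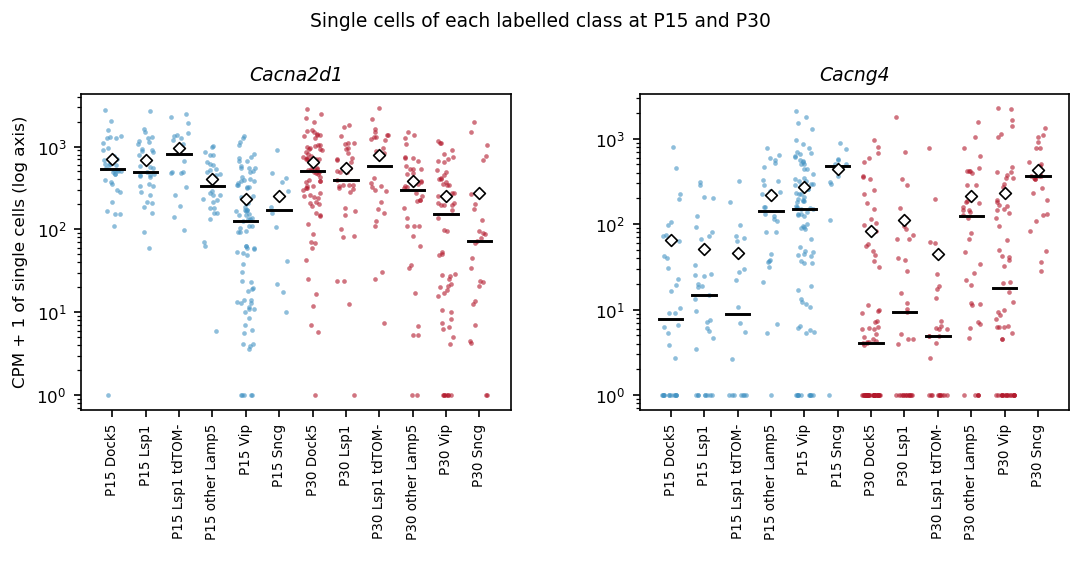
CPM + 1 (log axis) of Cacna2d1 and Cacng4 in single cells of each labelled class at P15 (blue) and P30 (red); points are cells, bars are medians and diamonds are means over cells. Cacna2d1 is high in the Dock5, Lsp1 and tdTOM- Lsp1 cells, and Cacng4 is high in the other Lamp5, Vip and Sncg cells, for example 231, 225 and 441 CPM summed at P15.

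The remaining members that were lower at both ages were at low levels in NGCs, and Scn7a rested on few non-NGCs. Cacna1h, a T-type pore gene (chr17:25374285-25433783, minus strand), was at 5.58 CPM in NGCs and 22.2 CPM in non-NGCs at P15, and at 6.48 and 35.3 CPM at P30, log2 folds of -1.05 and -1.46. Its lowest and median cells were at 0 in every group, 1 NGC held 85.0% of the NGC counts at P15, and the highest cells reached 503 and 299 CPM in NGCs and 472 and 1289 CPM in non-NGCs. After thinning it was counted in 3.1% (0.4 to 10.8) of NGCs and 34.6% (24.2 to 46.2) of non-NGCs at P15, and in 7.9% (3.5 to 15.0) and 24.7% (16.0 to 35.3) at P30.

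Scn7a (chr2:66673425-66784914, minus strand) encodes an atypical channel that senses the sodium level and does not respond to voltage. NGCs held 6 counts of it at P15 and 5 at P30, or 0.296 and 0.172 CPM. Non-NGCs held 23.4 and 24.5 CPM, log2 folds of -1.70 and -1.76, but 1 cell carried 27.7% of those counts at P15 and 66.0% at P30. Only 20.2% and 8.33% of the non-NGCs had a count of it, with medians of 0 and highest cells of 1258 and 2125 CPM. The Vip class held 26.0 CPM at P15 and 37.9 CPM at P30. Leaving out the top cell of each gene in each group took Scn7a and Cacna1h below the 20 CPM limit at 1 age or both.

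By subunit group, no high-voltage pore gene reached 2-fold at either age among the 5 compared. Cacna1a, the P/Q-type pore gene, came closest, with 298 CPM in NGCs and 145 CPM in non-NGCs at P15 (log2 fold 0.99) and 191 and 121 CPM at P30 (0.61). The N-type gene Cacna1b lay on the other side (-0.29 and -0.70), and Cacna1c and Cacna1e, L- and R-type genes, stayed between -0.33 and 0.26. Of the sodium pore genes, Scn8a had 0.67 at P15 and 0.08 at P30, the embryonic form Scn3a had -0.73 at both ages (160.5 CPM in NGCs and 273 CPM in non-NGCs at P15, 133 and 227 CPM at P30), and Scn1a and Scn2a, without a row at P15, had 0.28 and -0.13 at P30. The beta subunit Scn2b was at -0.18 at P30, and Scn3b at -0.53 at P15 and -0.70 at P30. Among calcium beta subunits Cacnb4, at 547 CPM in NGCs at P15 and 499 CPM at P30, differed by 0.33 and 0.22, Cacnb1 by 0.54 and 0.19, Cacnb3 by -0.14 and -0.88 and Cacnb2 by -0.72 and -1.16. The TARP gene Cacng2 differed little, by -0.13 and -0.23. The T-type genes Cacna1g and, at P15, Cacna1i differed by -0.10 and 0.46, and Cacna1g by -0.33 at P30.

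At single ages more members passed 2-fold. At P15 there were 4 higher, against 6.08% of all genes, among them Cacna2d1 and the TARP Cacng8, and 4 lower, against 7.55%. Cacng8 was at 24.9 CPM in NGCs and 5.15 CPM in non-NGCs, with 47.1% of the NGC counts in 1 cell. At P30 only Cacna2d1 was higher, against 6.85% of all genes, and 9 were lower, against 7.03%. The 9 included Hcn3 (11.7 CPM in NGCs and 75.7 CPM in non-NGCs), the TARPs Cacng3 (15.7 and 110.7 CPM) and Cacng5 (4.79 and 23.8 CPM), the sodium channel of sensory axons Scn9a (1.41 and 33.6 CPM) and Cacnb2 (86.5 and 205 CPM). At P15 Hcn3 was within 2-fold, at 30.2 CPM in NGCs and 60.4 CPM in non-NGCs (-0.81). Cacng3 and Scn9a have no row at P15, so their difference could be looked at only once. Hcn4 was at 7.86 and 20.5 CPM at P15 and 9.52 and 20.8 CPM at P30, within 2-fold.

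These counts rest on the labelled cells. With every tdTOM+ cell set against every tdTOM- cell, inconclusive cells included, no member was 2-fold apart at both ages in either direction (0 of 22 compared), against 0.276% of all genes higher and 0.247% lower. The folds kept their signs: Cacna2d1 was at 0.50 and 0.73, Cacna2d3 at -0.48 and -0.34, and Cacng4 at -0.80 and -1.20.

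A list of 37 gene symbols was taken as channel partners, and 24 were compared at both ages. Many of them bind or carry these channels, but the list is wider. It also holds the separate channel gene Nalcn with its subunits Unc79, Unc80 and Fam155a, the potassium channel subunit Dpp6, and AMPA receptor partners such as Cnih2, Cnih3 and Shisa9. Of these, 2 were higher in NGCs, against 2.08% of all genes, and 1 was lower, against 2.84%. Fgf13, whose protein binds sodium channel tails, was at 1080.5 CPM in NGCs and 327 CPM in non-NGCs at P15 and at 614 and 199 CPM at P30. Rimbp2, a scaffold that holds calcium channels at release sites, was at 754 and 106 CPM at P15 and at 513 and 164 CPM at P30. Stac2, which binds L-type channels, was at 7.90 and 32.4 CPM and at 11.3 and 54.3 CPM.

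Between Dock5+NGCs and Lsp1+NGCs, the members that stood apart at both ages were calcium channel subunits outside the pore. Of 19 members compared at both ages, 2 were higher in Dock5+NGCs at both (Cacna2d3 and Cacnb2), against 1.53% of all 6787 genes, and 0 were lower, against 1.18%. Cacna2d3 passed the 20 CPM limit through Dock5+NGCs alone, so its direction was fixed by the limit. The sign agreed between the ages for 12 of the 19, against 52.9% of all genes. Median log2 folds were 0.08 at P15 and -0.02 at P30 over the members and -0.01 at both over all genes. Oligodendrocyte markers, 3 of 4 with a row, moved with this comparison, and their part in the result was not tested. They summed to 43.6 CPM in Dock5+NGCs (0 to 957 CPM per cell) and 5.58 CPM in Lsp1+NGCs (0 to 91.7 CPM per cell) at P15, and to 43.4 CPM (0 to 959.6 CPM per cell) and 11.3 CPM (0 to 197 CPM per cell) at P30. The median cell was at 0 in each group, and of the 3 only Mag was at 0 in Lsp1+NGCs, at both ages.

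For Cacna2d3 the tdTOM+ and tdTOM- Lsp1 cells were alike. Its lowest, median and highest cells held 0, 24.7 and 599 CPM in Dock5+NGCs and 0, 0 and 260 CPM in Lsp1+NGCs at P15, and 0, 5.45 and 835 CPM against 0, 0 and 25.2 CPM at P30. In tdTOM- Lsp1 cells the median was 0 at both ages, the highest cells were at 97.4 and 75.5 CPM and the sums were 13.5 and 5.71 CPM, near those of the tdTOM+ Lsp1+NGCs. Summed over cells, Dock5+NGCs had 93.2 CPM (87.5 to 99.2) and 78.6 CPM (74.7 to 82.7), so the Dock5+NGCs lay between Lsp1+NGCs and the non-NGC classes. After thinning to 149136 counts at P15 (5 and 2 cells left out) and 141194 counts at P30 (10 and 1), 80.6% (62.5 to 92.5) of Dock5+NGCs and 35.5% (19.2 to 54.6) of Lsp1+NGCs had a count at P15, and 53.0% (40.3 to 65.4) and 26.5% (12.9 to 44.4) at P30. On the log2 scale the differences were 2.20 and 2.77.

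Cacnb2, a cytoplasmic beta subunit, depended on which Lsp1 cells were used. Its median cells were alike, at 8.03 CPM in Dock5+NGCs and 10.2 CPM in Lsp1+NGCs at P15 and at 7.44 and 5.58 CPM at P30, while its highest cells were at 1563 and 323 CPM and at 914 and 530 CPM. Summed at P15, Dock5+NGCs had 105 CPM (99.1 to 112) against 34.4 CPM (30.8 to 38.3), or 1.38 on the log2 scale. At P30 they had 109 CPM (104 to 113) against 43.4 CPM (39.4 to 47.7), or 1.15. In tdTOM- Lsp1 cells Cacnb2 was at 123 CPM at P15, above the Dock5+NGCs, and at 53.4 CPM at P30, so with these cells the log2 fold was -0.20 at P15 and 0.90 at P30. The share of cells with a count after thinning was 64.5% (45.4 to 80.8) in Dock5+NGCs and 61.3% (42.2 to 78.2) in Lsp1+NGCs at P15.

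**Figure D3:**
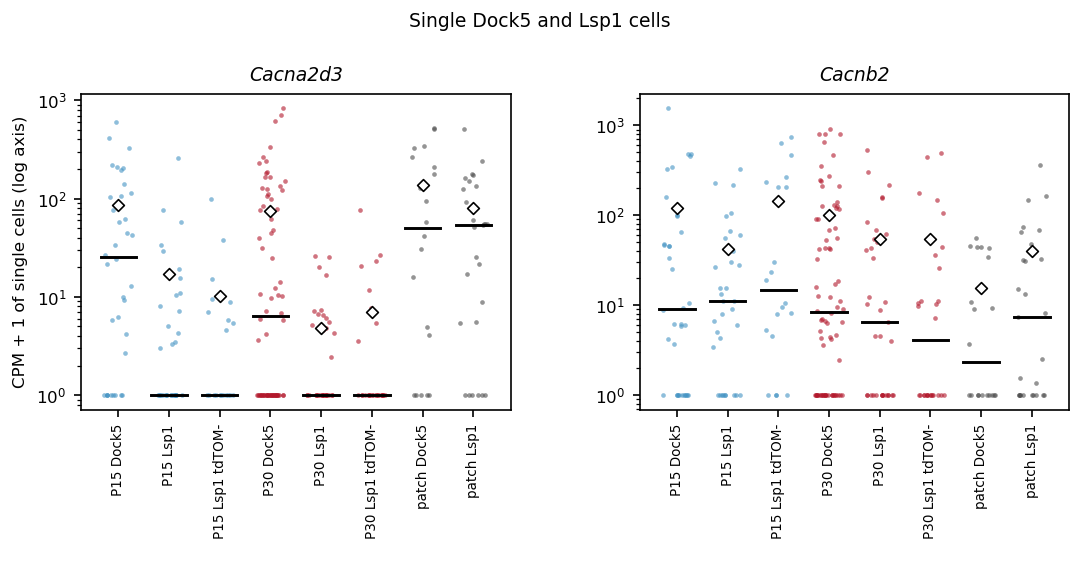
CPM + 1 (log axis) of Cacna2d3 and Cacnb2 in single Dock5 and Lsp1 cells at P15 (blue), at P30 (red) and in patch-seq (grey); points are cells, bars are medians and diamonds are means over cells. The median of Cacna2d3 is at 0 CPM in each sorted Lsp1 group and at 24.7 and 5.45 CPM in Dock5+NGCs, whereas the medians of Cacnb2 are close together.

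On the higher side Cacna1c followed, at 0.33 and 0.39, then Scn3a, at 0.24 and 0.35, and Scn3b, at 0.18 and 1.28. On the lower side, Scn8a was at 359 CPM in Dock5+NGCs and 473 CPM in Lsp1+NGCs at P15 and at 258 and 411 CPM at P30 (-0.39 and -0.65), Cacng4 was at -0.25 and -0.54, and Cacnb4 at -0.32 and -0.24. Scn1a and Scn2a, compared at P30 alone, were at -0.04 and 0.62, Scn2a with 850 CPM (837 to 863) for the Dock5 label against 548 CPM (534 to 563) for Lsp1. Every Dock5+NGC and Lsp1+NGC at P30 had a count of Scn2a.

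At P15 alone, Cacng5, Cacna2d3, Cacnb2 and Hcn3 were higher in Dock5+NGCs, against 9.16% of all genes, and 0 were lower, against 8.93%. Single cells carried much of the counts of Cacng5 (75.5% in Dock5+NGCs and 87.0% in Lsp1+NGCs) and of Hcn3 in Lsp1+NGCs (83.5%). At P30 Cacna2d3, Cacnb2 and Scn3b were higher, against 9.31%, and Cacng3 was lower, against 8.38%. Cacng3 was at 7.15 CPM in Dock5+NGCs and 32.2 CPM in Lsp1+NGCs, and the top cell held 43.1% and 54.9% of these counts. Scn3b was at 102 CPM in Dock5+NGCs and 36.2 CPM in Lsp1+NGCs, with a Dock5+NGC at 5001 CPM that held 29.2% of the counts, and at 172 CPM in tdTOM- Lsp1 cells. Of the 23 partners compared at both ages, 0 were higher in Dock5+NGCs, against 1.53% of all genes, and 1 was lower, against 1.18%. This was Dpp6, known chiefly as a subunit of potassium channels, at 112 against 420.2 CPM at P15 and 88.5 against 274 CPM at P30.

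The recorded cells gave another pattern. Of 23 members compared between patch-seq Dock5+NGCs and Lsp1+NGCs, 0 were higher in Dock5+NGCs, against 8.5% of all 7955 genes, and 6 were lower, against 9.77%. The 6 were the TARP gene Cacng2, the pore genes Cacna1a, Cacna1e and Cacna1i, and the beta subunits Cacnb1 and Cacnb3. Cacna1e, Cacna1i, Cacnb1 and Cacnb3 passed the 20 CPM limit through Lsp1+NGCs alone, so their direction was fixed by the limit. The median log2 fold of the members was -0.60, beside 0.09 over all genes.

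Cacng2 was counted in all 47 recorded cells. Its lowest, median and highest cells were at 1.54, 38.7 and 443 CPM in Dock5+NGCs and at 1.56, 195 and 890.4 CPM in Lsp1+NGCs, and the sums were 79.6 CPM (73.6 to 86.0) and 220.3 CPM (216 to 224), a log2 fold of -1.36. In the sorted cells of the same labels it was at -0.48 at P15 and -0.04 at P30. Cacnb3 had medians of 4.13 and 34.2 CPM and sums of 17.6 and 46.6 CPM (-1.03), and Cacna1a had medians of 6.80 and 48.5 CPM and sums of 47.1 and 123 CPM (-1.22). Cacnb1 had sums of 18.4 and 47.6 CPM (-1.02). Cacna1e, at 13.6 and 48.1 CPM, and Cacna1i, at 0.490 and 20.9 CPM, had medians of 0 in both subtypes, and 1 Lsp1+NGC held 90.3% of the Lsp1 counts of Cacna1i. The top Lsp1+NGC held 57.8% for Cacna1a, 59.3% for Cacna1e and 55.4% for Cacnb1, and the top Dock5+NGC held 46.5%, 41.4% and 47.3%. For Cacng2 and Cacnb3 the top cells held 38.5% and 27.1% in Dock5+NGCs and 22.5% and 29.4% in Lsp1+NGCs.

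Just within 2-fold on the same side were Scn3b (-0.98), Cacna1d (-0.90) and Cacna1b (-0.77), and on the other side Cacna2d3 (0.90), Scn3a (0.64) and Cacng3 (0.43). The sodium pore genes Scn1a, Scn2a and Scn8a were at -0.16, -0.68 and -0.38.

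The patch-seq groups also differed in age, library batch, depth and markers of other cells. At P23 there were 3 Dock5+NGCs and 1 Lsp1+NGC, at P25 2 and 0, and at P14 0 and 2. Batches 4 and 11 each held 1 Dock5+NGC and 5 Lsp1+NGCs, whereas batch 6 held 3 and 1. The part of age and batch in the result was not tested. The deepest Lsp1+NGC, with 15968484 counts, held 30.0% of its group. Oligodendrocyte markers summed to 1210.3 CPM in Dock5+NGCs (114 to 5438 CPM per cell) and 5893 CPM in Lsp1+NGCs (4.83 to 13803 CPM per cell), all 4 of them were above 0 in both groups, and their part in the result was not tested. The excitatory markers summed to 15.7 CPM (0 to 131 CPM per cell) and 224 CPM (0 to 545 CPM per cell), all 4 again above 0 in both, and their part was not tested either. Without the deepest cell of each subtype, 3 members were lower in Dock5+NGCs, and without the cells whose oligodendrocyte sum exceeded that of every Dock5 cell, only Cacng2 was lower (-1.70) and Cacng3 and Cacng4 were higher. With cells pooled from only the library batches that held at least 3 cells of each subtype, 10 members were lower, Cacng2 not among them (-0.56). The share over all genes is not given for these recounts. Recorded Dock5+NGCs had 149 CPM of Cacna2d3 (140.4 to 157) against 75.1 CPM (72.8 to 77.5), which is 0.90 on the log2 scale and below 2-fold, and its median cells were level at 48.7 and 52.5 CPM. Of 24 partners, 0 were higher in Dock5+NGCs, against 8.5% of all genes, and 5 were lower, against 9.77% (Ank2, Fam155a, Rims1, Rimbp2 and Nedd4l).

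The largest differences lay between embryonic and postnatal cells of the lineage. Over the 16384 gene rows shared by both tables, 27 members were compared between NGCs at P30 and tdTOM+/GFP+ cells at E14.5. Of them 16 were higher at P30, against 23% of all 8581 genes, and 7 were lower, against 19.8%. In either direction these are 23 of 27, against 42.8% of all genes. For several the 20 CPM limit fixed the direction. Among these, Scn1a, Scn2b, Cacna1c, Cacna1d, Cacna1g and Cacnb2 passed it at P30 alone, and Cacna1h, Cacna2d2, Hcn3 and Scn9a at E14.5 alone. The median log2 fold was 1.96 over the members and 0.02 over all genes. The ages differ in region, dissociation and library, and age cannot be told apart from these. At E14.5 the cells held neuroblast markers at 4285 CPM and GABAergic markers at 719 CPM. Of the NGC markers, Lamp5 and Ndnf were at 0.201 and 0.143 CPM, and Reln and Npy are not given at this age. These cells are called lineage cells after their sort, and the name does not rest on these markers.

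Sodium channel genes stood on both sides. Scn1a, the main pore gene of many cortical INs, was counted in 12.4% of E14.5 cells, with a median of 0 and a highest cell of 561 CPM, and in 95.5% of NGCs at P30, with a lowest, median and highest cell of 0, 367 and 2478 CPM. Over shared rows it was at 13.0 CPM (12.4 to 13.5) and 461 CPM (453 to 469), a log2 fold of 4.36, the largest of all members. Scn2a, its neighbour on chromosome 2 and a pore gene of young axons, had a median of 0 and a highest cell of 1420 CPM at E14.5, and 5.46, 596 and 4898 CPM in the lowest, median and highest NGC. It was at 29.3 CPM (28.5 to 30.2) and 752 CPM (742 to 762.1), a log2 fold of 4.28. Scn8a, which drives firing at the axon initial segment of mature neurons, was at 40.0 and 312 CPM (2.69).

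Scn3a and Scn9a, which lie in the same gene cluster between chr2:65457118 and chr2:66784914, stood on the embryonic side. Scn3a was counted in 93.8% of E14.5 cells, with 0, 167 and 1783 CPM in the lowest, median and highest cell, and in 73.9% of NGCs at P30, with 0, 26.6 and 2509 CPM. It was at 250.3 CPM (248 to 253) and 134 CPM (130.0 to 139), a log2 fold of -0.85 that stayed within 2-fold. Scn9a was at 37.8 CPM (36.9 to 38.8) and 1.42 CPM (1.02 to 1.93), a log2 fold of -2.07, and was counted in 29.9% of E14.5 cells and 7.21% of NGCs at P30. Beta subunits split likewise, with Scn2b at 5.16 and 177 CPM (3.63) and Scn3b at 172 and 80.3 CPM (-1.01).

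The promoter windows of Scn1a and Scn2a are shown because both genes stood at the top of this comparison and lie in 1 cluster. They were taken and marked in the same way: Scn2a is chr2:65620519-65620818 on the plus strand and Scn1a is chr2:66440788-66441087 on the minus strand.
Scn2a: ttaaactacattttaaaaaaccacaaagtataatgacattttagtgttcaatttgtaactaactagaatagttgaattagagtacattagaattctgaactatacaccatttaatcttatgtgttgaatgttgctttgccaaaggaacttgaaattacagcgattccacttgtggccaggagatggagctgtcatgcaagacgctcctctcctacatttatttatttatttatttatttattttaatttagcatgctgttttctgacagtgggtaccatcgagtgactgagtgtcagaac
Scn1a: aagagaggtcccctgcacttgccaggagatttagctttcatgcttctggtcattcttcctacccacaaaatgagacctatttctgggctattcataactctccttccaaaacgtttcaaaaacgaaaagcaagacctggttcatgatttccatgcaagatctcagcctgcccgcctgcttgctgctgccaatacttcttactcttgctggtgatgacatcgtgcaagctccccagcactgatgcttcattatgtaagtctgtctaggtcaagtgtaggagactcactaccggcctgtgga
Neither window holds a GC box, so neither has capitals, and they hold 3 and 5 CpG pairs. In this they differ from the windows of Cacna2d1, which was also higher at P30, and Cacna2d3.

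All 5 high-voltage pore genes compared were higher at P30. Cacna1d was at 10.7 CPM at E14.5 and 207 CPM at P30 (log2 fold 3.39), Cacna1a at 25.9 and 192 CPM (2.49), Cacna1b at 37.4 and 175 CPM (1.96), Cacna1c at 13.5 and 60.0 CPM (1.57) and Cacna1e at 43.8 and 142 CPM (a fold of 2.82). The T-type genes parted, with Cacna1g at 11.7 and 82.7 CPM (2.09) and Cacna1h at 38.5 and 6.52 CPM (-1.55). The beta subunits also parted. Cacnb4 was at 46.5 and 502 CPM (3.18) and Cacnb2 at 4.79 and 87.0 CPM (2.71). Cacnb3, which had a median cell of 45.3 CPM at E14.5 and 5.03 CPM at P30, was at 145 and 57.8 CPM (-1.19), and Cacnb1 was at 27.6 and 35.9 CPM (0.29).

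The alpha2delta genes covered every outcome. Cacna2d1 was counted in 26.3% of E14.5 cells and 98.2% of NGCs at P30, at 40.3 CPM (39.3 to 41.3) and 566 CPM (557 to 575), a log2 fold of 3.52. Cacna2d2 was at 20.2 and 4.68 CPM (-1.04), and Cacna2d3 at 58.8 and 53.3 CPM (-0.12). Of the TARP genes, Cacng2 was at 21.3 and 171 CPM (2.53) and Cacng4 at 189 and 82.8 CPM (-1.10). Cacng4 was found in 91.4% of E14.5 cells, with a median of 89.5 CPM, and in 56.8% of NGCs at P30.

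Of the HCN genes, Hcn3 was at 43.0 and 11.8 CPM (-1.29) and Hcn4, the pacemaker form of the heart, at 21.1 and 9.57 CPM (-0.67). Thinned to 182985 counts, with 16 E14.5 cells and 37 NGCs too shallow to enter, Scn1a was found in 10.9% (8.1 to 14.4) of E14.5 cells and 97.3% (90.6 to 99.7) of NGCs, and Scn9a in 25.1% (21.0 to 29.7) and 6.8% (2.2 to 15.1).

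**Figure D4:**
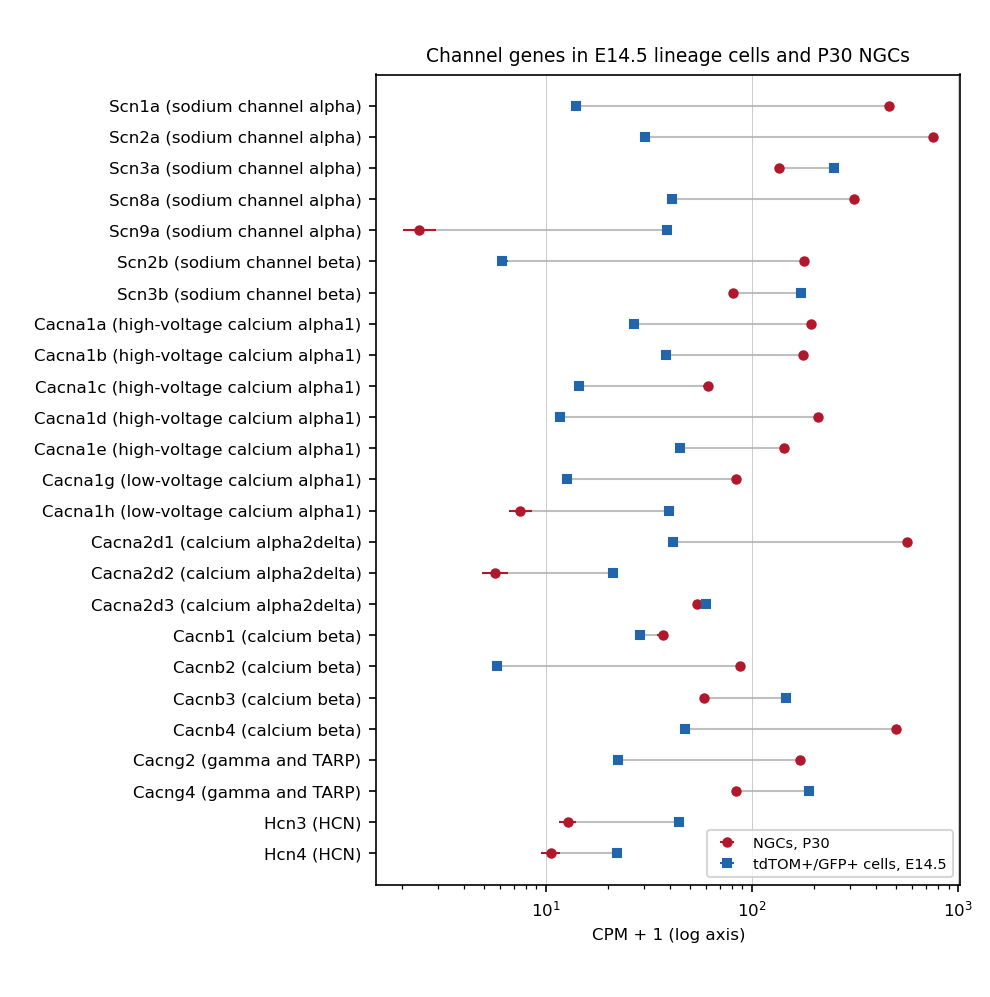
CPM + 1 (log axis) of 25 of the members compared between tdTOM+/GFP+ cells at E14.5 (blue squares) and NGCs at P30 (red circles), over the gene rows both tables share; short bars are exact Poisson intervals at 95%. The red circle lies to the right for 15 genes, among them Scn1a at 13.0 and 461 CPM, and to the left for 10, among them Scn9a at 37.8 and 1.42 CPM.

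With all tdTOM+ cells at P30 in place of the labelled NGCs, 17 members were higher than at E14.5, but only 2, Cacna1h and Scn9a, were lower. With P15 NGCs in place of P30, 16 members were higher and 4 lower than at E14.5. Scn1a, Scn2a, Scn2b and Scn9a have no row there, and Hcn3 and Scn3b were within 2-fold (-0.62 and -0.91). The share over all genes is not given for either recount. P15 and P30 themselves were set side by side over their 11979 shared rows without a comparison. NGCs had Cacna1d at 99.7 CPM at P15 and 249 CPM at P30, Cacng4 at 43.9 and 99.3 CPM, Cacnb1 at 82.3 and 43.1 CPM, and Cacna2d1 at 649 and 678 CPM. Of 27 partners compared between E14.5 and P30, 12 were higher at P30, against 23% of all genes, and 2 were lower, against 19.8%. The 4 sodium channel-binding genes Fgf11, Fgf12, Fgf13 and Fgf14 were all among the 12, Fgf13 at 67.1 and 617 CPM, with the release-site scaffolds Rims1 (30.1 and 466 CPM), Rims2 and Rimbp2 (13.7 and 516 CPM). Rem2, an inhibitor of calcium channels, at 58.8 and 6.63 CPM, and the AMPA receptor partner Cnih2, at 101 and 19.0 CPM, were lower.

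Within E14.5, the members compared stood almost wholly on the side of the lineage cells, in part through the 20 CPM limit. Of 19 compared over 19417 shared rows, 14 were higher in tdTOM+/GFP+ cells than in FlashTag+ cells, against 8.5% of all 8505 genes, and 0 were lower, against 15.8%. The median log2 fold was 1.33 over the members and -0.09 over all genes. Only Cacnb1, Cacnb3, Cacng4, Scn3a and Scn8a reached 20 CPM in FlashTag+ cells. The other members compared passed the limit through the lineage cells alone, so their higher level there was fixed by the limit. Members below 20 CPM in both groups were not compared, among them Cacna1g (-0.31) and Cacnb2 (-0.39), which were higher in FlashTag+ cells. The FlashTag+ cells carried progenitor markers at 6162 CPM, against 237 CPM in the lineage cells, all 7 of them above 0 in both, and GABAergic markers at 72.8 CPM against 719 CPM. The part of these markers in the result was not tested.

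Among the sodium channel genes, 3 of the 5 compared were higher in lineage cells. Scn3b had 0, 17.5 and 1826 CPM in the lowest, median and highest lineage cell and 0, 0 and 2024 CPM in FlashTag+ cells, and sums of 171 CPM (169 to 173) and 18.1 CPM (17.3 to 18.9), a log2 fold of 2.69. After thinning to 168471 counts, which left out 13 lineage and 64 FlashTag+ cells, it was counted in 62.7% (57.8 to 67.4) and 6.6% (4.0 to 10.1) of the cells. Scn3a was at 249 CPM (246 to 251) and 64.2 CPM (62.7 to 65.7), a log2 fold of 1.80, with medians of 167 and 0 CPM, and Scn9a was at 37.6 and 4.65 CPM (1.70). Most single FlashTag+ cells were thus at 0, and for Scn3a and Scn3b the highest of them reached as far as those of the lineage.

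Of the calcium channel genes compared, 2 of 3 high-voltage pores, 1 of 1 T-type pore, 2 of 3 alpha2delta subunits and 2 of 3 beta subunits were higher in lineage cells. The R-type gene Cacna1e was at 43.5 and 1.31 CPM (2.24), with 94.3% of the FlashTag+ counts in 1 cell, Cacna1b was at 37.2 and 6.16 CPM (1.55) and Cacna1h at 38.2 and 11.1 CPM (1.19). Cacna2d3 was at 58.4 and 7.37 CPM (1.98) and Cacna2d2 at 20.02 and 4.64 CPM (1.04). Cacnb3 was at 144 CPM (142 to 146) and 43.7 CPM (42.5 to 45.0), a log2 fold of 1.52, and Cacnb4 at 46.2 and 12.3 CPM (1.33). The TARP genes Cacng2 and Cacng4 were at 21.1 and 2.18 CPM (1.35) and at 187 and 79.5 CPM (1.14), and Hcn3 and Hcn4 at 42.7 and 10.1 CPM (1.39) and 20.9 and 4.69 CPM (1.07).

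The 5 others were within 2-fold: Cacna2d1 (0.97), Scn2a (0.80), Cacna1a (0.42), Cacnb1 (0.29) and Scn8a (-0.14). Scn8a, at 39.8 CPM (38.8 to 40.8) in lineage cells and 44.7 CPM (43.5 to 46.0) in FlashTag+ cells, was the only member compared with its higher level in FlashTag+ cells, although it was counted in a smaller share of them after thinning, 21.5% (16.9 to 26.7) against 35.1% (30.4 to 39.9). Of 21 partners compared, 13 were higher in lineage cells, against 8.5% of all genes, and 1 was lower, against 15.8%. The lower one was Cachd1, a protein related to alpha2delta subunits, at 15.0 and 103 CPM.

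**Figure D5:**
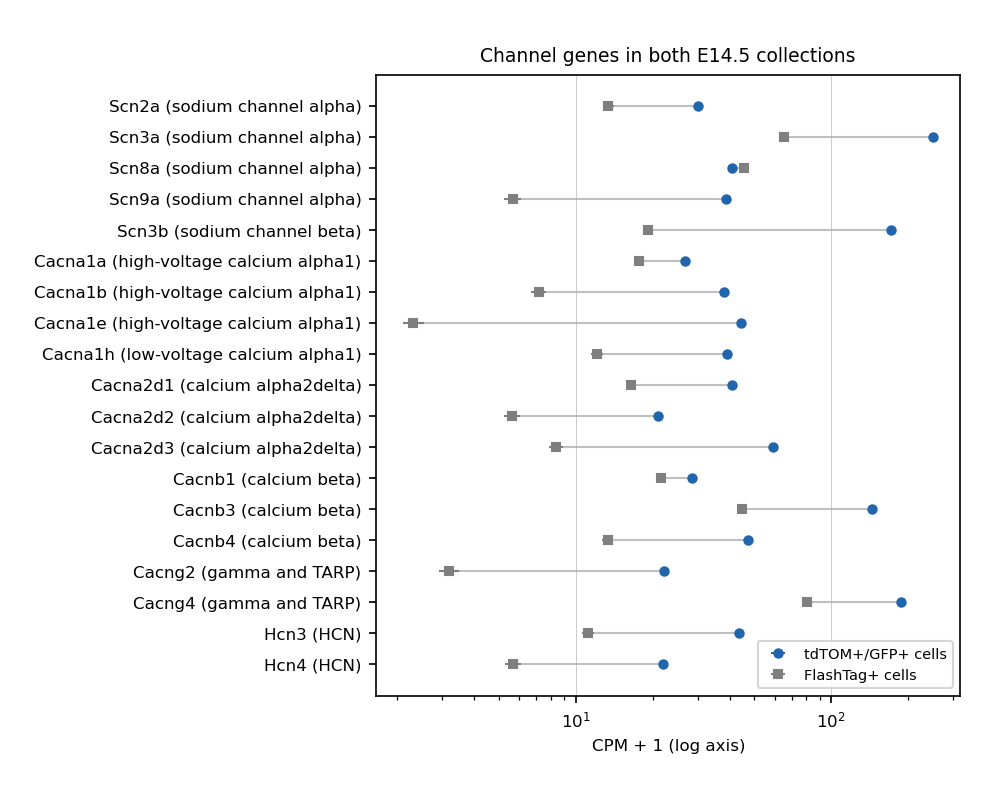
CPM + 1 (log axis) of the 19 members compared between tdTOM+/GFP+ cells (blue circles) and FlashTag+ cells (grey squares) at E14.5, over the gene rows both tables share; short bars are exact Poisson intervals at 95%. The circle lies to the right for 18 genes, among them Scn3b at 171 and 18.1 CPM, and Scn8a is the exception at 39.8 and 44.7 CPM.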

How the data were processed

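The authors sorted single cells of the upper somatosensory cortex (P15, P30) and of the POA (E14.5) onto C1 chips, aligned the reads with STAR to GRCm38, collapsed molecular identifiers with UMI-tools and counted uniquely mapped exonic reads with summarizeOverlaps, using strand. They removed poor cells and, by chip imaging, doublets, so no doublet caller was run here. Patch-seq cells were made by a 3′ kit and labelled by a classifier trained on the sorted subtypes. All deposited values used here were whole-number counts per gene and cell; 2 droplet tables were not used here, and 0 columns of the tables used were left unmapped.

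Counts were summed per group with Python 3.11.15, numpy 2.4.6, scipy 1.17.1 and pandas 2.3.3, and figures were drawn with matplotlib 3.10.9. Groups came from the deposited labels. CPM, log2(CPM + 10) folds and exact intervals were computed as stated in the results; a pair of ages with different rows was compared over shared rows only. Shares were recomputed after thinning each cell to the 10th percentile of depth of the comparison, with shallower cells left out. The script was tested on simulated data. Genes without a row in a table cannot be compared there, and shallow groups give wide intervals.

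The genes described in full are those at least 2-fold apart (at both ages where there are 2) and, in each direction, the 3 with the largest fold, ranked where there are 2 ages by the smaller of both; other members at 20 CPM or more are given by family. The members and the partner list were chosen with earlier results of these data known. Alternatives covered the CPM added, the minimum level, the fold, the cells, the totals, thinning and the averaging. Promoter windows of 32 of the 44 members were matched in RefSeq. A few members are included in the counts but are not reported here.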

Additional observations from a re-analysis of the deposited data

Results flagged for a closer look

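Between Dock5+NGCs and Lsp1+NGCs, 4 members lay on opposite sides at the 2 ages, each by less than 2-fold; with 1 sample per group these differences between ages were not tested. The N-type gene Cacna1b had a log2 fold of 0.59 at P15 and -0.25 at P30, and the T-type gene Cacna1g had 0.49 and -0.38. The R-type gene Cacna1e had -0.50 at P15 and 0.79 at P30, and Cacna2d1 had -0.27 and 0.14. The tables of both ages do not hold the same gene rows, and age and library cannot be told apart.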

How the results depend on the processing

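No paired analysis was possible because no test was run and no label gives replicate numbers shared between groups. Patch-seq cells share library batches, and a recount is given for cells pooled over the batches with at least 3 cells of each subtype. No value within a single batch was computed. Of 146 counts of members recomputed under another setting, 107 were within 1.5 times the reported count and 39 were not; of 687 folds of at least 2 recomputed, 686 had the same direction. The exception was Cacnb2 between Dock5+NGCs and Lsp1+NGCs at P15, with a log2 fold of -0.20 when tdTOM- Lsp1 cells were used.

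The share over all genes under each setting is not given beside the recounts below. A changed count is therefore not read as a result about the members. The count of 1 member higher in NGCs than in non-NGCs was 2 with 1 CPM added, in plate rows 21 to 40, after thinning, and without the top cell of each gene, 3 with mean log values, 4 at 1.5-fold and 0 with whole sorts. The count of 4 lower in NGCs was 8 at 1.5-fold, 1 with 100 CPM added, 2 with at least 50 CPM, with mean log values, or without the top cell of each gene, and 0 with whole sorts. The count of 2 higher in Dock5+NGCs was 0 with 100 CPM added, and 1 with both sorts, with tdTOM- Lsp1 cells, in plate rows 1 to 20, after thinning, with mean CPM and with mean log values; the count of 0 lower was 1 in plate rows 1 to 20.

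In patch-seq the count of 0 higher in Dock5+NGCs was 2 at 1.5-fold and 2 without the cells high in oligodendrocyte markers, an alternative chosen after seeing the data. The count of 6 lower was 13 at 1.5-fold, 0 with 100 CPM added, 2 with at least 50 CPM or mean log values, and 3 with mean CPM or without the deepest cells. It was 1 without the cells high in oligodendrocyte markers, and 10 in cells pooled from the batches with at least 3 cells of each subtype.

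The count of 7 lower at P30 than at E14.5 was 0 with 100 CPM added, 2 with all tdTOM+ cells, 3 with at least 50 CPM, and 4 with P15 cells or mean log values; the count of 16 higher was within 1.5 times under each setting run. The count of 14 higher in lineage cells than in FlashTag+ cells was 2 with 100 CPM added, and 5 with at least 50 CPM or mean log values. Beyond what each setting's construction shows (fewer genes or cells, a larger added value), the cause was not tested.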
